A study of Rattus norvegicus with 6 samples.

Results

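Carbonic anhydrases are the enzymes that turn carbon dioxide and water into bicarbonate and a proton, and back again. Described here are 10 genes of that family in neurospheres of the adult rat carotid body, chosen by gene symbol (Car1, Car2, Car3, Car4, Car5b, Car7, Car8, Car9, Car12 and Car14). All 10 were measured, each by 1 probe set, among 14506 genes that had a probe set of their own on the array. The members and the gene lists used below were chosen with earlier results of these data known.

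The carotid body, which lies where the carotid artery divides, senses oxygen and carbon dioxide in the blood, and neurospheres are floating clusters grown from its dispersed cells. RNA was measured on 6 Affymetrix arrays. The 3 arrays labelled differentiated came from spheres kept for 10 days in neural crest medium without mitogens, in hypoxia at 3% oxygen. The 3 arrays labelled undifferentiated came from spheres kept equally long in complete neural crest medium in normoxia, with EGF, FGF, ET-1 and IGF-1 as mitogens. Mitogens and oxygen therefore differed together and cannot be told apart, and each sphere holds several cell types. Whether a group's arrays stand for separate animals or cultures is not in the labels, and the p-values describe only the spread between these arrays.

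Values are on a log2 scale as deposited, and a difference is the group labelled differentiated minus the group labelled undifferentiated, in log2 units. A gene was called when its limma p-value, adjusted over all 14506 genes, was under 0.05. Array medians lay between 5.05 and 5.13 and lower quartiles between 3.37 and 3.52, and how far a dim probe set stood over background is not known. The level of a member was not set against that of another, since each probe set has its own brightness. Th, the tyrosine hydroxylase that makes the catecholamine precursor in glomus cells, was 10.90 ± 0.37 in the group labelled differentiated and 13.76 ± 0.16 in the group labelled undifferentiated (SD, n = 3 each). That order is opposite to what the labels would lead a reader to expect, and all groups below are named by their labels.

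In cells, the family is divided by place. Car1, Car2, Car3 and Car7 are soluble enzymes of the cytosol, Car8 is a cytosolic relative without catalytic activity, and Car5b is the enzyme of the mitochondrial matrix. Car4, Car9, Car12 and Car14 sit in the plasma membrane with the active site facing outward, Car4 by a lipid anchor and the others by a membrane-spanning stretch. In the carotid body, carbonic anhydrase in glomus cells is known to speed the response to carbon dioxide, and Car9 and Car12 are known in many cells as genes induced by hypoxia.

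Of the 10 genes, 1 was higher, Car2, and 1 was lower, Car12, in the group labelled differentiated, and 8 were not called. Across the whole array 29.5% of genes were called, 14.7% higher and 14.9% lower, so the share of carbonic anhydrases called was not above that of all genes. Those shares are also the background for the counts called in the marker and gene lists below. The arrays of the groups did not overlap for the same 2 genes, against 42.3% of all genes. The median difference of the 10 genes was 0.21, beside 0.06 over all genes, and 9 of the 10 differences were positive, beside 57.6% of all genes. That count was 8 with quantile normalization, where Car1 was at -0.06, and 7 both without the first array labelled undifferentiated and without the third labelled differentiated. What sets the members apart from each other is the size of the differences, which ran from -4.02 to 1.16.

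**Figure D1:**
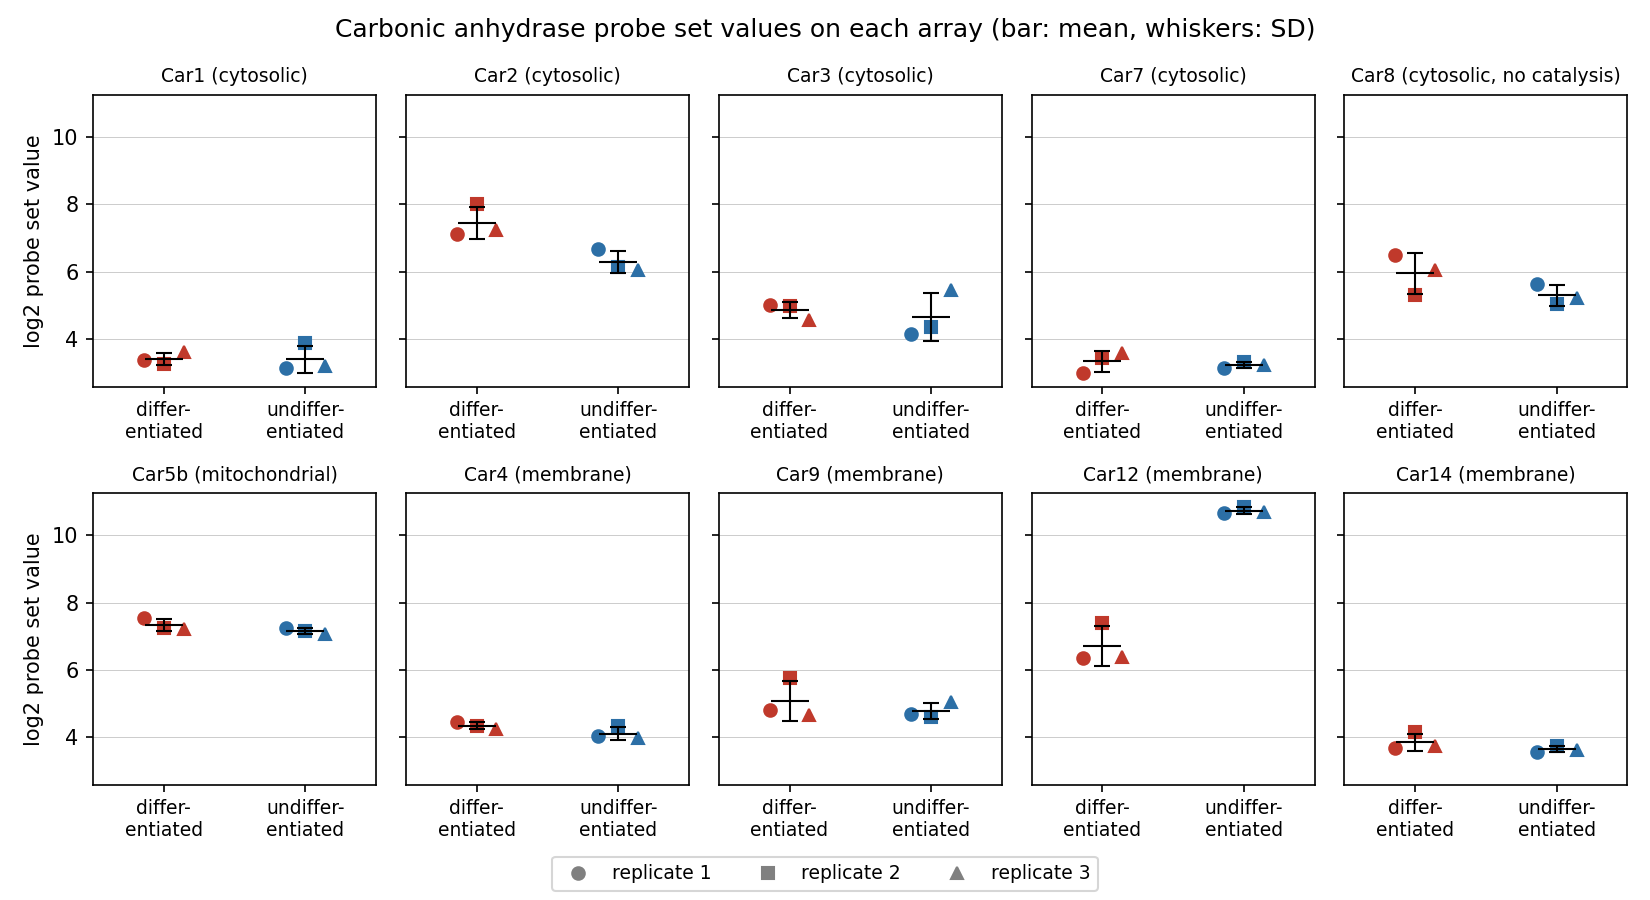
Log2 probe set value (vertical axis, shared by all panels) of each of the 10 carbonic anhydrases on the 3 arrays labelled differentiated (red, left) and the 3 labelled undifferentiated (blue, right), with marker shape for the replicate number, a bar for the mean and whiskers for the SD. Car12 lies between 6.36 and 7.40 in the group labelled differentiated and between 10.65 and 10.86 in the group labelled undifferentiated, the Car2 groups are separate, and in the other 8 panels the groups overlap.

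Car12, a membrane-spanning enzyme that acidifies the outside of the cell, had log2 values of 6.36, 7.40 and 6.38 in the arrays labelled differentiated, against 10.65, 10.86 and 10.69 in those labelled undifferentiated. All 3 arrays labelled differentiated were far below the lowest array labelled undifferentiated, and the second of them stood above the other two. The means were 6.71 ± 0.60 in the group labelled differentiated and 10.73 ± 0.11 in the group labelled undifferentiated (SD, n = 3 each). Car12 fell by 4.02 ± 0.23 (SE, 95% interval -4.52 to -3.51), a 16.2-fold difference (limma adjusted p = 3.1e-07). Only 8 of the 14506 genes had a more negative difference. When each array was left out in turn, the difference lay between -4.36 and -3.84 and was called each time.

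The fall of Car12 went with that of the glomus cell markers. All 9 measured markers of glomus cells, of 10 listed, fell, and their mean log2 value per array was 7.38 to 7.91 in the group labelled differentiated and 10.38 to 10.50 in the group labelled undifferentiated. The second array labelled differentiated was the highest of its group for Car12, for Th (11.32, against 10.73 and 10.65 on the other two) and for the mean of the glomus markers. Not every glomus marker followed. On that array Slc18a2 (8.47, against 9.02 and 8.73) and Chga (5.19, against 5.43 and 6.05) were the lowest of their group. Slc18a1 was not the highest there, while the other glomus markers were. In the group labelled undifferentiated, Car12 was highest on the second array, where Th was lowest. In RNA of whole spheres, fewer cells of a type and less RNA per cell cannot be told apart, and the part of the glomus cells in the Car12 difference was not tested.

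The promoter window of Car12 is shown because it is the member with the largest difference, and that of Car9 because both are known as hypoxia-induced genes. Each window runs from 250 bases before to 50 bases after the annotated start, is written 5′ to 3′ in the direction of the gene, and comes from RefSeq on the GRCr8 assembly, which held a window for 6 of the 10 members. Capitals mark ACGTG and GCGTG, the core letters of the hypoxia response element, on either strand. The Car12 window is chr8:76169565-76169864 and the Car9 window chr5:62558774-62559073, both on the plus strand.
Car12: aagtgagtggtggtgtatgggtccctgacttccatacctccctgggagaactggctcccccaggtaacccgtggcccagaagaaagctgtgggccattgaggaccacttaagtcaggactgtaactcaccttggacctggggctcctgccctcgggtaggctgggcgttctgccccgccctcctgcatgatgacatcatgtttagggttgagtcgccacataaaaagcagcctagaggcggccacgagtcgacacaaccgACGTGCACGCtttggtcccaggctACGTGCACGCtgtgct
Car9: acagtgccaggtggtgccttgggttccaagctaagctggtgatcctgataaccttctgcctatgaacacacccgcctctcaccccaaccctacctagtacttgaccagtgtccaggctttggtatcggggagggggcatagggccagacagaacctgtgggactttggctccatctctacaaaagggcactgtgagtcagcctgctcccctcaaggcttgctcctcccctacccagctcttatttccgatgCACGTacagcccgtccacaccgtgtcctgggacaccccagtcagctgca

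The Car12 window held 4 matches and the Car9 window 1. The 4 matches of Car12 lie after the annotated start, in 2 copies of the letters ACGTGCACGC whose first bases are 24 bases apart, and in each copy an ACGTG on the gene's strand is followed directly by a GCGTG on the opposite strand. Of 33469 windows of the same length (Car12 included), 41.6% held at least 1 match and 3.46% held at least 4. The 10 letters were read from the Car12 window itself, so no share is drawn from them. The start on which the Car12 window is built lies 92 bases inside the outermost annotated start of the gene, so the matches are within its transcribed part in this annotation. The match of Car9 starts 1 base after the base annotated as the start. The Car4 window held 2 matches, the Car7 and Car14 windows 1 each, and the Car5b window 0. The start used for Car5b lies 12473 bases inside the outermost annotated start of its gene, and that used for Car4 256 bases inside. Both Car4 matches thus lie within the gene in this annotation, and the Car5b count is not one for its outermost start. These matches are descriptions of letters and show no binding.

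Car9, the membrane-spanning enzyme best known as a marker of hypoxic cells, had log2 values of 4.79, 5.77 and 4.67 in the arrays labelled differentiated and 4.69, 4.59 and 5.04 in those labelled undifferentiated. The second array labelled differentiated stood above the other 5, which overlapped. The difference was 0.31 ± 0.26 (SE, 95% interval -0.26 to 0.88, limma adjusted p = 0.434), and it was -0.04 without the second array labelled differentiated. Car9 lay below the array median on 5 of 6 arrays. The interval leaves room for a fall of up to 0.26, for no difference and for a rise of up to 0.88, in the group that the labels place at 3% oxygen.

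Car4, the lipid-anchored enzyme known from capillary endothelium and kidney, ranged from 4.24 to 4.44 in the group labelled differentiated and from 3.97 to 4.32 in the group labelled undifferentiated. Its difference was 0.23 (95% interval -0.10 to 0.56, limma adjusted p = 0.302). Car14, a membrane-spanning enzyme of brain, retina and kidney, ranged from 3.69 to 4.14 in the group labelled differentiated and from 3.55 to 3.74 in the group labelled undifferentiated, with a difference of 0.21 (95% interval -0.15 to 0.57, limma adjusted p = 0.388). Both genes lay below the array median on all 6 arrays and their groups overlapped. Of 6 measured endothelial markers, 1 was higher and 1 lower, with a median difference of 0.03. Their mean per array was 4.77 to 4.93 in the group labelled differentiated and 4.96 to 5.03 in the group labelled undifferentiated.

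Car2, the fast and widespread enzyme of the cytosol, found in glomus cells, red cells, oligodendrocytes and osteoclasts, had log2 values of 7.12, 8.00 and 7.22 in the arrays labelled differentiated, against 6.67, 6.15 and 6.06 in those labelled undifferentiated. Every array labelled differentiated was above every array labelled undifferentiated, with the second array again the highest of its group. The means were 7.45 ± 0.48 in the group labelled differentiated and 6.29 ± 0.33 in the group labelled undifferentiated (SD, n = 3 each). Car2 rose by 1.16 ± 0.23 (SE, 95% interval 0.66 to 1.65), a 2.23-fold difference (limma adjusted p = 0.00236), and 2.03% of all genes had a larger positive difference. The difference lay between 0.88 and 1.34 when each array was left out, and was called each time. It was not called by an equal-variance test without moderation (adjusted p = 0.0967).

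Marker lists of several cell types, some of them not named above for Car2, did not all move with it. No osteoclast list was read. The glomus markers moved the other way, as given above with Car12. None of the 7 measured erythroid markers was called, their mean per array being 3.62 to 3.86 in the group labelled differentiated and 3.56 to 3.69 in the group labelled undifferentiated, and Hbb-b1 and Ahsp lay below the lower quartile on all 6 arrays. None of 5 measured oligodendrocyte markers was called, with means of 5.20 to 5.29 in the group labelled differentiated and 5.04 to 5.13 in the group labelled undifferentiated. Of 7 Schwann and sustentacular glia markers 2 were higher and 1 lower, the last being Mbp, a myelin gene that oligodendrocytes also express, which fell by 1.97. Their means were 6.65 to 7.22 in the group labelled differentiated and 6.87 to 7.21 in the group labelled undifferentiated. Of 7 macrophage markers 2 were higher and 1 lower, with means of 7.21 to 7.92 in the group labelled differentiated and 6.77 to 7.39 in the group labelled undifferentiated. Of 8 smooth muscle and mesenchymal markers 6 were higher and 0 lower, with means of 8.99 to 9.15 in the group labelled differentiated and 8.01 to 8.13 in the group labelled undifferentiated. The second array labelled differentiated, which had the highest Car2, also had the highest mean of its group for several marker lists. These were the glomus, the macrophage, the erythroid, the skeletal muscle and the smooth muscle and mesenchymal markers, so that array singles out no cell type. The part of any of these cells in the Car2 difference was not tested.

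Among the protein-coding genes of the rat gene table, Car2, Car3, Car1 and Car13 are direct neighbours in that order. Of these 4 genes only Car2 was called. Car3, a slow enzyme abundant in skeletal muscle and fat cells, had log2 values of 5.01, 4.97 and 4.57 in the arrays labelled differentiated and 4.15, 4.34 and 5.46 in those labelled undifferentiated. The third array labelled undifferentiated was the highest of all 6, and the other two of its group were the lowest. The difference was 0.20 ± 0.29 (SE, 95% interval -0.44 to 0.84, limma adjusted p = 0.67). Without the third array labelled undifferentiated it was 0.61 and was called (limma adjusted p = 0.0386), and without the first array of that group it was -0.05. Over the whole fat cell list, 0 of 7 markers were higher and 1 was lower. Their means were 5.10 to 5.27 in the group labelled differentiated and 5.33 to 5.50 in the group labelled undifferentiated. In the latter the third array, at 5.37, lay between the other two. On that array Adipoq (5.12, against 4.15 and 3.92) and Pparg were the highest of their group, and Fabp4, Cfd and Lpl the lowest. Of 9 skeletal muscle markers 1 was higher and 0 lower, with means of 4.50 to 4.60 in the group labelled differentiated and 4.22 to 4.44 in the group labelled undifferentiated. The part of fat or muscle cells in the Car3 values was not tested.

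Car1, the cytosolic enzyme of red cells and colon, and Car7, a cytosolic enzyme of neurons, were dim. Car1 ranged from 3.25 to 3.60 in the group labelled differentiated and from 3.13 to 3.86 in the group labelled undifferentiated, and lay below the lower quartile on 4 of 6 arrays. Its difference was 0.01 (95% interval -0.44 to 0.46, limma adjusted p = 0.984). Car7 ranged from 2.98 to 3.58 in the group labelled differentiated and from 3.12 to 3.30 in the group labelled undifferentiated, and lay below the lower quartile on 5 of 6 arrays. Its difference was 0.11 (95% interval -0.28 to 0.50, limma adjusted p = 0.693). Neither gene was shown to lie above background, so a missing call says little about them. Car13, the last gene of the neighbouring group and a cytosolic enzyme, differed by 0.07 (limma adjusted p = 0.827).

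Car8, the relative that binds the inositol trisphosphate receptor and is known from Purkinje cells, had log2 values of 6.50, 5.30 and 6.04 in the arrays labelled differentiated and 5.64, 5.04 and 5.20 in those labelled undifferentiated. The second array labelled differentiated lay within the range of the other group, while the other two lay above it. The difference of 0.65 ± 0.26 (SE, 95% interval 0.07 to 1.23) had an unadjusted p of 0.0313 and was not called (limma adjusted p = 0.0913). Without the second array labelled differentiated it was 0.98 and was called (limma adjusted p = 0.00319). On that array Car12, Car2, Car9 and Car14 were each at the top of their group, and Car8 and Car1 at the bottom.

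Car5b, which supplies bicarbonate to enzymes inside mitochondria, ranged from 7.22 to 7.55 in the group labelled differentiated and from 7.05 to 7.24 in the group labelled undifferentiated. The difference of 0.18 ± 0.12 (SE, 95% interval -0.08 to 0.44) was not called (limma adjusted p = 0.298). With 7.34 ± 0.19 in the group labelled differentiated and 7.15 ± 0.09 in the group labelled undifferentiated (SD, n = 3 each), Car5b was above the array median on all 6 arrays.

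**Figure D2:**
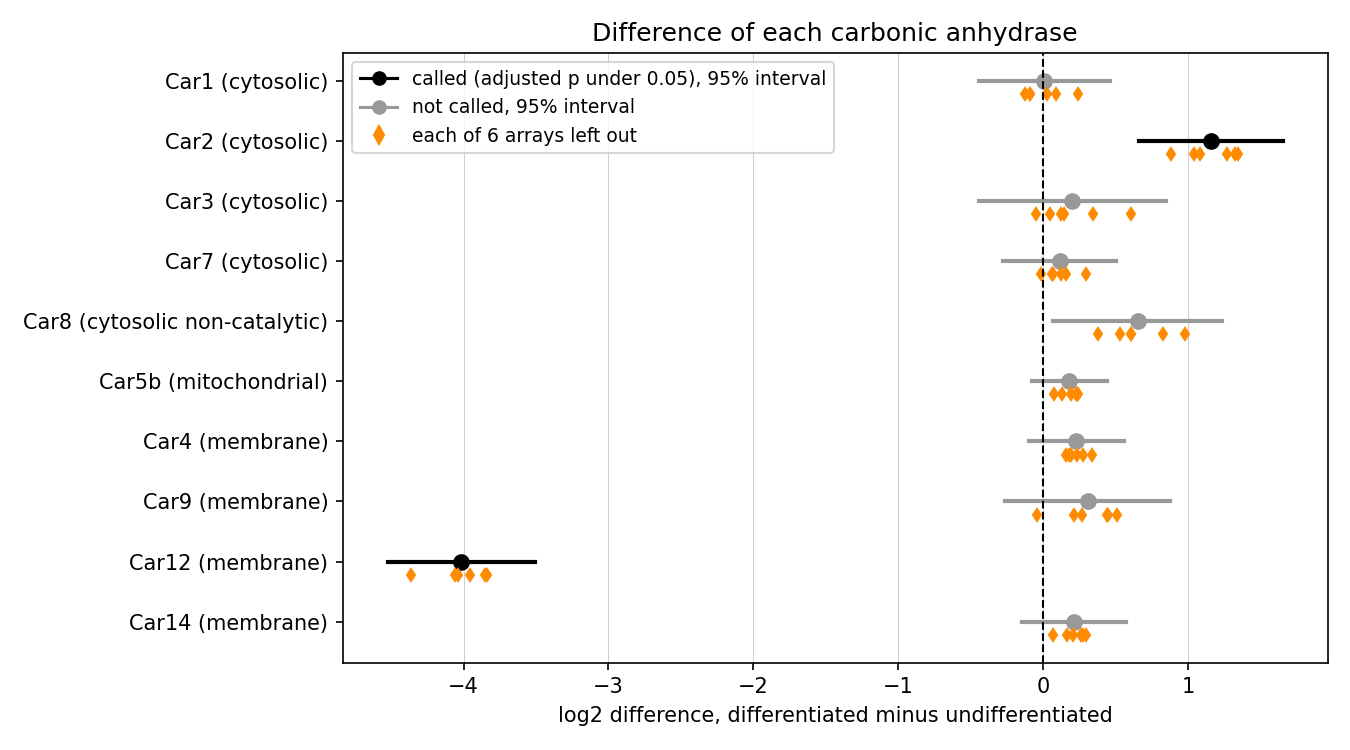
Log2 difference (horizontal axis, differentiated minus undifferentiated) of each carbonic anhydrase with its 95% interval, black where called and grey where not, and in orange the difference when each of the 6 arrays was left out. Car12 at -4.02 and Car2 at 1.16 stand clear of 0, the interval of Car8 ends at 0.07, and those of the other 7 include 0.

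Cytosolic and membrane forms were set side by side by their medians. The 4 catalytic cytosolic genes had a median difference of 0.16, with 1 called higher and 0 lower, and a median of 0.20 when Car8 was counted with them. The 4 membrane genes had a median of 0.22, with 0 called higher and 1 lower. Without Car12, the remaining 3 membrane genes had differences of 0.21 to 0.31. The median of the catalytic cytosolic genes was 0.0080 without the first array labelled undifferentiated and 0.36 without the third, and that of the membrane genes was 0.01 without the second array labelled differentiated. With dim genes left out, the median was 0.68 over the 2 catalytic cytosolic genes that remained, Car2 and Car3, and -1.85 over the 2 membrane genes, Car9 and Car12. With so few genes in each form these medians are descriptions.

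Other genes that share the carbonic anhydrase fold were read from a list of 8, of which 7 were measured. Of the 7, 1 was higher and 1 lower, with a median of 0.28. Car11, a secreted relative without catalytic activity, was 6.39 ± 0.18 in the group labelled differentiated and 7.15 ± 0.13 in the group labelled undifferentiated (SD, n = 3 each). It fell by 0.76 ± 0.12 (SE, limma adjusted p = 0.000698). Ptprg, a receptor tyrosine phosphatase with a carbonic anhydrase-like outer domain, rose by 0.81 ± 0.11 (limma adjusted p = 0.000226). Car5a, Car6, Car13 and Car15 had differences of 0.07 to 0.38 and were not called. Without the second array labelled differentiated, 2 of the 7 were called higher.

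Bicarbonate transporters carry the product of the reaction across the membrane. The genes listed under that name, not all of which mainly carry bicarbonate, were called in both directions. Of 17 measured, of 18 listed, 5 were called higher and 3 lower, beside 14.7% and 14.9% of all genes, with a median of 0.08. The 5 called higher include a gene that mainly carries other ions. Slc4a8, a sodium-driven chloride and bicarbonate exchanger of neurons, was 5.31 ± 0.44 in the group labelled differentiated and 7.62 ± 0.18 in the group labelled undifferentiated (SD, n = 3 each), and fell by 2.31 ± 0.19 (SE, limma adjusted p = 5.9e-06). Slc4a3, a chloride and bicarbonate exchanger of excitable cells, fell by 0.81 ± 0.13 (limma adjusted p = 0.000557). Slc4a7, a sodium and bicarbonate cotransporter, rose by 1.16 ± 0.11 (limma adjusted p = 1.65e-05), and Slc4a2, a widespread anion exchanger, rose by 0.78 ± 0.10 (limma adjusted p = 0.000183). Each of these 4 was called with every array left out. The number called higher was 3 without the second array labelled differentiated, and 2 without the third of that group. It was also 2 without the second and without the third array labelled undifferentiated.

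Genes listed for proton and lactate extrusion were also called in both directions. Of 14 measured, of 18 listed, 2 were called higher and 6 lower, with a median of -0.18. Not all listed genes move acid out of the cell themselves, and the 6 called lower include some that do not. Of all genes 14.7% were called higher, so the 2 are near that share, and 14.9% were called lower. Slc9a2, a sodium and proton exchanger, was 4.97 ± 0.11 in the group labelled differentiated and 6.92 ± 0.17 in the group labelled undifferentiated (SD, n = 3 each), and fell by 1.95 ± 0.13 (SE, limma adjusted p = 8.16e-07). Slc16a1, a transporter that carries lactate with a proton, fell by 1.67 ± 0.11 (limma adjusted p = 1.09e-06). Those called higher were Slc16a7, another such transporter, by 0.44 ± 0.13 (limma adjusted p = 0.0216), and Slc9a5, a sodium and proton exchanger of neurons, by 0.45 ± 0.15 (limma adjusted p = 0.047). Slc16a7 lost its call without the third array labelled differentiated (adjusted p = 0.0897), the second labelled undifferentiated (0.079) and the third labelled undifferentiated (0.0706). Slc9a5 was called only without the second array labelled differentiated among the 6 fits that each left an array out, with an adjusted p of 0.0758 to 0.165 in the other 5, and its adjusted p was 0.0881 with quantile normalization.

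Among 9 measured channels for carbon dioxide, ammonia and water, 1 was called higher and 0 lower, beside 14.7% and 14.9% of all genes, with a median of 0.13. Aqp1, a water channel that also passes carbon dioxide, was 9.90 ± 0.11 in the group labelled differentiated and 8.63 ± 0.21 in the group labelled undifferentiated (SD, n = 3 each), and rose by 1.28 ± 0.12 (SE, limma adjusted p = 1.31e-05). Among 9 measured enzymes that use bicarbonate or are switched by it, 2 were called higher and 1 lower, with a median of 0.14. Pc, pyruvate carboxylase of the mitochondrial matrix, was 7.67 ± 0.03 in the group labelled differentiated and 10.58 ± 0.05 in the group labelled undifferentiated (SD, n = 3 each). It fell by 2.91 ± 0.09 (SE, limma adjusted p = 8.38e-09), while Car5b of the same compartment differed by 0.18. Mccc2 and Pccb, subunits of other mitochondrial carboxylases, rose by 0.49 (limma adjusted p = 0.0278) and 0.36 (limma adjusted p = 0.0316). Mccc2 lost its call without the second (adjusted p = 0.0745) or the third (0.0673) array labelled differentiated and without the first (0.0754) or the second (0.101) labelled undifferentiated. Pccb lost it without the first (0.0927) or the third (0.0765) array labelled differentiated and without the second labelled undifferentiated (0.108).

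Genes known to be induced by hypoxia, as Car9 is, were lower. All 12 measured had a negative difference, with a median of -1.04. Of them 0 were called higher and 11 lower, beside 14.7% and 14.9% of all genes. Without the third array labelled undifferentiated, 7 were called lower. The labels place the group in which they were lower at 3% oxygen. This order, like that of Th, is opposite to what the labels would lead a reader to expect. Mitogens differed together with oxygen, and the reason for the order was not tested. Adm, the vasodilator peptide adrenomedullin, had the smallest p of the list and was 8.34 ± 0.47 in the group labelled differentiated and 12.21 ± 0.17 in the group labelled undifferentiated (SD, n = 3 each). Ndrg1, a stress-response gene, fell by 2.35 ± 0.13 (SE, limma adjusted p = 2.63e-07). Car12 fell with these genes and Car9, at 0.31, was not called, and whether Car9 differs from the list was not tested.

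**Figure D3:**
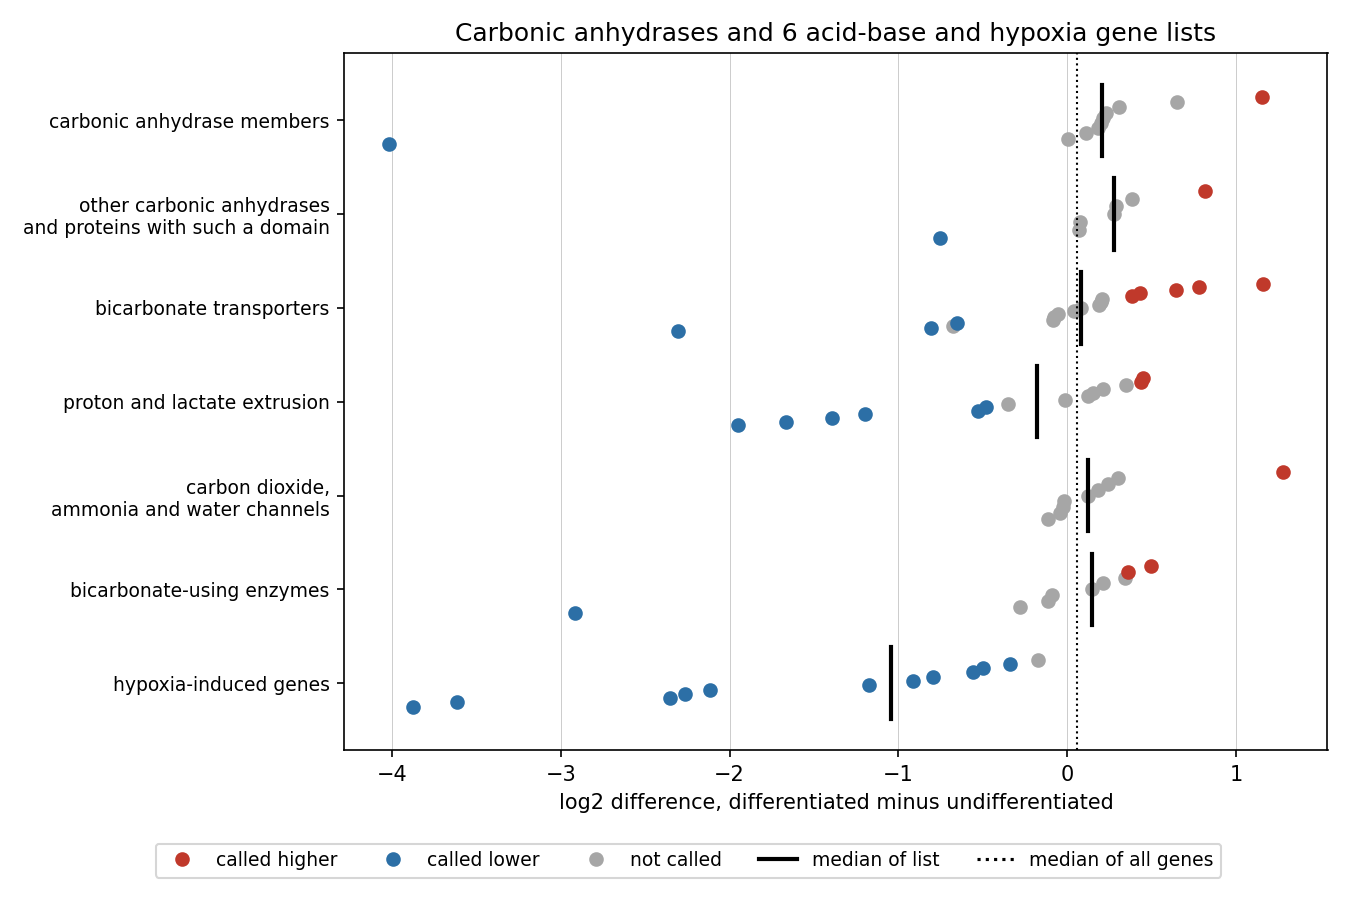
Log2 difference (horizontal axis, differentiated minus undifferentiated) of each measured gene of the 10 carbonic anhydrases and of 6 gene lists, in red where called higher, in blue where called lower and in grey where not called, with a bar at the median of each list and a dotted line at the median of all genes. The hypoxia-induced genes have a median of -1.04, and the medians of the other lists lie between -0.18 and 0.28.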

How the data were processed

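The authors deposited log2 values for 29214 probe sets, 1 for each of the 6 arrays. The labels' protocols give 100 ng of total RNA as the start of the biotin labelling. Log base 2 was inferred from the range of the values. Background correction, normalization and software: not given in the sources used here. The values were used as deposited.

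Groups and replicate numbers came from the titles. The platform's table gave 15310 probe sets a single gene. The probe set of highest mean stood for a gene, which left 14506 genes. Gene IDs matched the GRCr8 gene table for 99.8% of these probe sets.

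All 6 arrays entered a limma 3.58.1 fit in R 4.3.3 (lmFit, eBayes with a mean-variance trend, no block, two-sided, Benjamini-Hochberg adjustment over all genes), tested on simulated data. Members, lists and tests were chosen with earlier results of these data known. Named were all members, Th, and from each list the 2 called genes of smallest p in each direction. Some genes of the marker lists were singled out after their values were seen. These were Mbp, Hbb-b1, Ahsp, Slc18a1, Slc18a2, Chga, Adipoq, Pparg, Fabp4, Cfd and Lpl. The unnamed remainder of the carbonic anhydrase list was also singled out after its values were seen. Promoter windows came from RefSeq on GRCr8. Python 3.11.15 with matplotlib 3.10.9 drew the figures. Alternatives were quantile normalization, a filter on dim genes, averaging probe sets, eBayes without the trend, an unmoderated test, a stricter threshold, a replicate block and leaving out each array.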

Additional observations from a re-analysis of the deposited data

How the results depend on the processing

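Car12 kept its direction and its call in all 12 alternatives, between -4.36 and -3.84, and Car2 was called in 11 of 12. With the replicate number as a block, 2 carbonic anhydrases were called higher, since Car8 then had a limma adjusted p of 0.00652. Nothing in the labels ties arrays of equal number to each other, so the block was not used in the main fit. The deviations of same-numbered arrays correlated at 0.12, 0.12 and -0.0038 (replicates 1 to 3). Those of arrays of unlike number correlated at -0.15 to 0.06, below the values of replicates 1 and 2. Deviations were taken from each group's own mean, so high values for some pairs of arrays force low ones for others. Whether arrays of equal number were paired was not tested. The number of carbonic anhydrases called higher was 0 with the unmoderated test and, over the 6 fits without an array, 1 to 2, and 1 was called lower each time. The unmoderated test called 1193 genes higher across the array, against 2128, and 5 higher and 14 lower of the 68 list genes, against 11 and 22. At an adjusted p under 0.01, 1356 genes were called higher. When each array was left out, 4 to 9 list genes were called higher. With dim genes left out (mean at or below 4.44), 6 of the 10 carbonic anhydrases remained, and the median was 0.68 over 2 catalytic cytosolic genes and -1.85 over 2 membrane genes. Quantile normalization turned Car1 to -0.06, a gene that was never called. With 3 arrays a group, the intervals of the dim members all include 0, and small differences among these members could not be resolved.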
